A study of Mus musculus with 6 samples.

Results

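The AP-1, Egr and other immediate early genes described here are Fos, Fosb, Fosl2, Jun, Junb, Jund, Egr1, Nr4a1, Arc and Ier2. These 10 genes were taken by symbol from the 55471 genes of the expression table, with no threshold on their values. All 10 were among the 18664 genes that were tested, those whose normalized counts averaged 10 or more. RNA was sequenced in bulk from neural stem and progenitor cells (NSPC) of the subgranular zone (SGZ), where new neurons of the dentate gyrus are born, in 3 NTG and 3 3xTg libraries. 3xTg mice, a model of Alzheimer disease, carry disease alleles that include mutant human APP and MAPT, and NTG mice are their non-transgenic controls. Both genotypes were crossed to a Nestin-CreERT2;ROSA26-EYFP reporter, in which Cre is driven by Nestin regulatory sequences and tamoxifen makes Nestin-expressing cells and their later progeny fluoresce. All mice received tamoxifen, were of the B6129SF2/J strain by their labels, and were taken at postnatal day 35, with sorting 10 days after tamoxifen. NTG mice came from a colony of their own, so that genotype and colony cannot be told apart. The SGZ was digested with warm papain, and YFP-positive cells were sorted after dead cells had been gated out with propidium iodide, which stains cells with leaky membranes.

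Immediate early genes are transcribed within minutes of a stimulus, without new protein synthesis, because the factors that act on their promoters are already in the cell. Fos and Jun family proteins pair through leucine zippers to form AP-1, which binds DNA and drives later genes, while Egr1 and Nr4a1 bind DNA through zinc fingers. In the brain these genes are widely used as marks of recent neuronal activity, and they are also induced when tissue is dissociated with warm enzymes. Because of this last property the values are given library by library. How long each sample spent from digestion to lysis is not given in the sources used here, and its part in the values was not tested.

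Assigned reads numbered 32731794 to 42576455 per NTG library and 53063475 to 81800375 per 3xTg library, so that the 3xTg libraries were all deeper. All 15 markers of neural stem and progenitor cells passed the filter, with a summed normalized count, most of it from Slc1a3, of 457783 to 508732 in NTG and 466526 to 548494 in 3xTg. Limma called 0 of the 15 with all libraries. Without 3xTg replicate 1 it called Dcx (log2 fold change 0.91), a gene of neuroblasts, and Eomes (0.74), a gene of intermediate progenitors, higher and Sox2 (-0.55), a gene of stem cells, lower. In that setting 5.14% of all tested genes were called higher and 5.74% lower. Dcx had normalized counts of 2739, 2815 and 1898 in NTG and 2335, 4735 and 4446 in 3xTg, so that 3xTg replicates 2 and 3 were the highest libraries. The 10 oligodendrocyte lineage markers summed to 330077 to 699503 in NTG and 629771 to 674807 in 3xTg, so that the sorted cells also held abundant RNA of that lineage. The 8 astrocyte markers summed to 846479 to 1040535 in NTG and 838878 to 1026650 in 3xTg, above the stem and progenitor sum in every library. Xist, expressed from the inactive X chromosome, and the Y-linked Ddx3y were both present in 3 libraries. NTG replicate 2 had little Xist (9.82), and NTG replicate 1 and 3xTg replicate 1 had little or no Ddx3y (2.34 and 0). The number of animals behind a library is not given in the sources used here. 3xTg replicate 1 stood apart from the other 3xTg libraries in the genes described here, and the main comparisons are therefore given with and without it.

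The promoters of 7 of the 10 genes were found in a RefSeq table (GRCm38.p6): those of Fos, Fosb, Fosl2, Jun, Junb, Jund and Nr4a1. The 250 bases before each start were searched on both strands for 8 motifs. The core of the site bound by CREB was searched as TGACG. The whole CREB site was searched as TGACGTCA, which contains that core. The AP-1 site was written TGACTCA, and the TATA box was written TATAAA. An Egr1 site was written GCGTGGGCG, an Sp1 site was searched as GGGCGG, and the CArG box, bound by SRF, is given by name. TGACATCA, a variant of the CREB and AP-1 sites, was added after the promoters had been read. The last 120 bases before the start are shown for the 5 genes that held the CREB core or the variant site, motifs found in both AP-1 families. Capitals mark the CREB core, the TATA box or the variant site, and in Nr4a1 they mark the CREB core as read from the other strand.
Fos (chr12:85473770-85473889, plus strand): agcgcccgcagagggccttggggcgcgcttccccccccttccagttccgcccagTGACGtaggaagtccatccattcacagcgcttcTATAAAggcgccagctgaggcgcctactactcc
Fosb (chr7:19310046-19310165, minus strand): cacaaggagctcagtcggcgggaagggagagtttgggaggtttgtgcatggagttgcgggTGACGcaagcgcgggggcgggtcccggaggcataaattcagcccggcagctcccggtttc
Jun (chr4:95052223-95052342, minus strand): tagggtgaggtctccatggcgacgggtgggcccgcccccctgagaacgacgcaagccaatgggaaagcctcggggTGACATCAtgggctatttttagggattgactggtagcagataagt
Junb (chr8:84978749-84978868, minus strand): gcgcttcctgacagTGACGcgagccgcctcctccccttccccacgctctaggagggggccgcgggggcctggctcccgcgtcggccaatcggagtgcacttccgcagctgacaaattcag
Nr4a1 (chr15:101266726-101266845, plus strand): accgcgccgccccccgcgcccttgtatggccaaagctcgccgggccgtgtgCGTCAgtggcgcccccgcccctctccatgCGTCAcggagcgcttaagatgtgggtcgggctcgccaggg
The CREB core lay in 4 of the 7 windows (Fos, Fosb, Junb and Nr4a1), against 17.8% of all 32851 windows in the table. In Nr4a1 it occurred at 233, 213, 69 and 40 bases before the start, in Fos at 129 and 66 bases. The TATA box lay 33 bases before the start of Fos (12.4% of all windows) and the variant site 45 bases before that of Jun (2.93% of all windows). The Sp1 site was found in 5 of the 7 windows, against 32.7% of all windows. The whole CREB site, the AP-1 site, the Egr1 site and the CArG box were found in 0 of the 7 windows (1.55%, 4.46%, 0.536% and 1.47% of all windows). These matches describe the letters of the windows only.

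The genes themselves are compact. By the GENCODE M21 annotation of GRCm38, their median span was 3862 bases, against 25032 bases for the 14701 tested protein-coding genes. Their median exon number in the longest transcript was 2.5 against 8, and Jun, Junb, Jund and Ier2 have 1 exon each. The GC content of the longest transcript had a median of 57.1%, from 51.9% in Fos to 67.1% in Jund, against 49.99% for the tested protein-coding genes. They lie on 7 chromosomes: Junb, Jund and Ier2 on 8, Nr4a1 and Arc on 15, and Fos, Jun, Fosb, Fosl2 and Egr1 on 12, 4, 7, 5 and 18.

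Within NTG, levels were compared per kb of exonic length. Fos (10287 ± 2751 normalized counts per kb, SD, n = 3) and Jun (9574 ± 1455) were highest, and their ranges over the libraries overlapped. Ier2 (4944 ± 390), Egr1 (4535 ± 608) and Junb (3924 ± 903) followed, again with overlapping ranges. Jund was at 1850 ± 160, and Nr4a1 (398 ± 131) and Arc (398 ± 68.3) could not be ordered. Fosb was at 112 ± 16.2 and Fosl2 at 10.2 ± 2.10, below the range of every other member. Averaged over all 6 libraries, Fos ranked 79 and Jun 127 among the 18664 tested genes by normalized count per kb, and Fosl2 ranked 16328.

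With all 6 libraries, no member differed between genotypes by limma. The numbers called higher and lower in 3xTg, at an adjusted p under 0.05 and a log2 fold change of 3xTg over NTG above 0.5 or below -0.5, were 0 and 0 of 10, where 1.13% of all tested genes were called higher and 1.67% lower. edgeR and DESeq2, run on the recovered reads, also called 0 in either direction, where they called 1.22% and 3.24% of all tested genes higher. At an unadjusted p under 0.05, limma had 2 members (Fosb and Fosl2), edgeR 3 (Fos, Fosb and Egr1) and DESeq2 3 (Fosb, Fosl2 and Egr1), all with higher levels in 3xTg. For limma, 12.1% of all tested genes were on that side. The shares for edgeR and DESeq2 at this threshold were not counted, so that their members cannot be set beside a background. The fitted log2 fold changes of all 10 members were above 0, with a median of 0.41 against 0.01 for all tested genes. An exact permutation test of 3 libraries against 3 cannot give a two-sided p under 0.1.

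The 3 3xTg libraries did not behave alike. 3xTg replicate 1 was the lowest 3xTg library in 10 of 10 members, against 39.4% of all tested genes. It lay below every NTG library in 5 members, as it did in 24.5% of all tested genes, within the NTG range in 4 (48.8% of all tested genes) and above it in 1, Fosl2. 3xTg replicates 2 and 3 were both above every NTG library in 8 of 10 members, against 26.7% of all tested genes. Reads of the 10 genes made up 0.229%, 0.206% and 0.172% of assigned reads in NTG replicates 1 to 3, and 0.150%, 0.382% and 0.421% in 3xTg replicates 1 to 3. The share was thus lowest in one 3xTg library and highest in the other two.

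**Figure D1:**
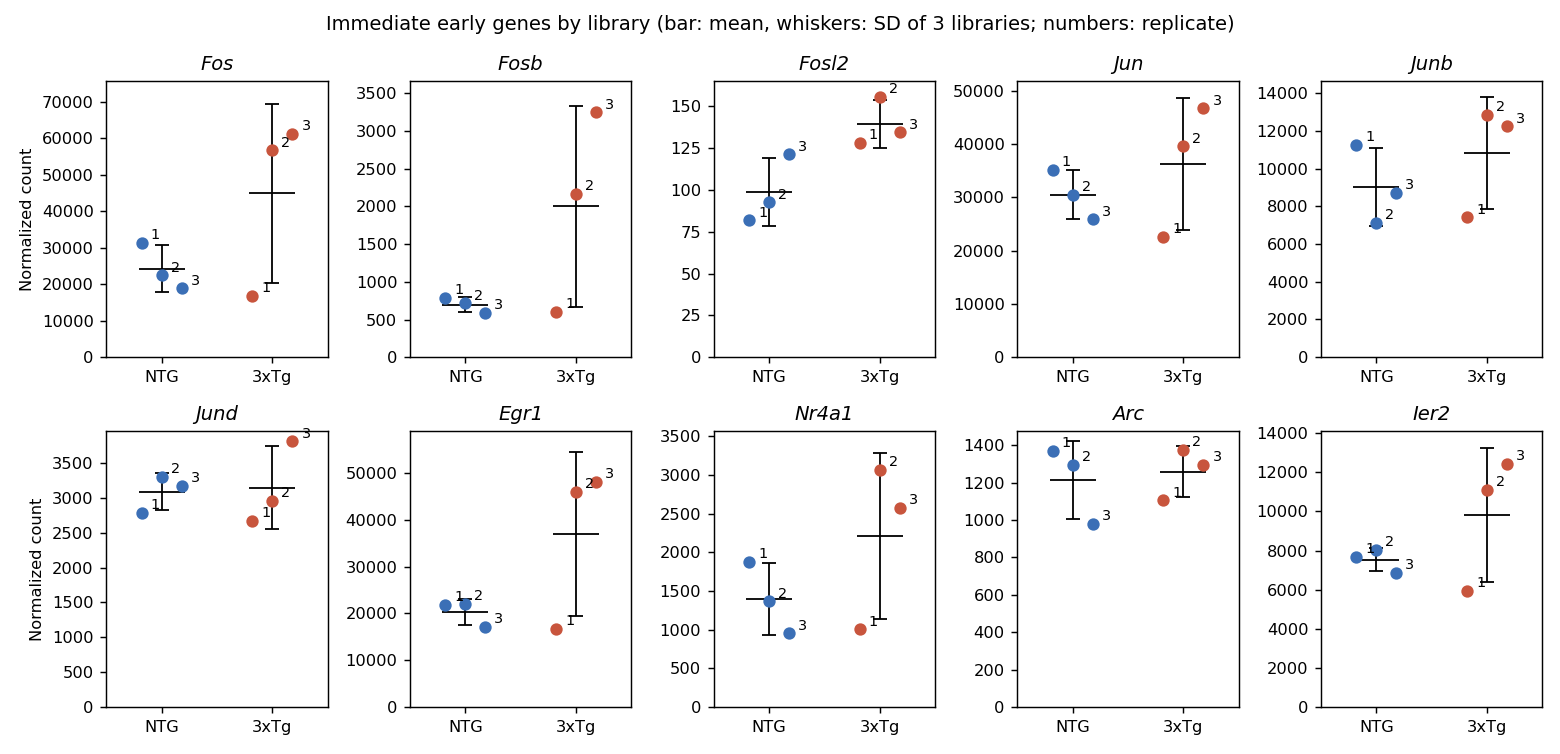
Normalized counts (linear axes from 0) of the 10 genes in the 3 NTG and 3 3xTg libraries; points are libraries with their replicate number, bars the mean and whiskers the SD of 3 libraries. In 8 genes 3xTg replicates 2 and 3 lie above all NTG libraries, and in all 10 replicate 1 is the lowest 3xTg library.

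Fos (ENSMUSG00000021250, chr12:85473890-85477273), the partner that Jun proteins need to form the most active AP-1, had normalized counts of 31380, 22382 and 18825 in NTG replicates 1 to 3. In 3xTg replicates 1 to 3 it had 16763, 56682 and 61192. 3xTg replicate 1 lay below every NTG library and the other two above, so that the groups overlapped. The means were 24196 ± 6471 and 44879 ± 24453 (SD, n = 3), with a log2 fold change of 0.71 (SE, the standard error, 0.42, 95% interval -0.23 to 1.65, limma adjusted p = 0.326). The exact permutation p was 0.4.

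Fosb (ENSMUSG00000003545, chr7:19302696-19310051), a Fos family member whose splice form ΔFosB is long-lived in neurons, had the largest fold change of the 10. Its normalized counts were 789, 715 and 589 in NTG and 599, 2164 and 3246 in 3xTg replicates 1 to 3. Replicate 1 of 3xTg sat inside the NTG range. Replicates 2 and 3 were at 3.12-fold and 4.68-fold of the NTG geometric mean, that is, the mean taken on the log2 scale. Fosb had a log2 fold change of 1.22 (SE 0.48, 95% interval 0.14 to 2.30), a limma adjusted p of 0.172 and an exact permutation p of 0.3. The counts are per gene, so that splice forms were not told apart.

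Fosl2 (ENSMUSG00000029135, chr5:32135801-32157842), which encodes the Fos-related protein Fra-2, was the one member in which the groups did not overlap, as 15.1% of all tested genes had every 3xTg library above every NTG library. Its normalized counts were 81.9, 92.6 and 121 in NTG and 128, 156 and 135 in 3xTg. The gap between the groups, 121 to 128, was smaller than the spread within either group. This gave a log2 fold change of 0.51 (SE 0.23, 95% interval 0.00 to 1.02, limma adjusted p = 0.212), and the exact permutation p was 0.1, the smallest that 3 against 3 allows.

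In the Jun family the 3xTg libraries stood closer to NTG. Jun (ENSMUSG00000052684, chr4:95049034-95052222), the main partner of Fos in AP-1, had normalized counts of 35187, 30505 and 25905 in NTG and 22606, 39568 and 46747 in 3xTg. Junb (ENSMUSG00000052837, chr8:84974484-84978718), a weaker activator that can oppose Jun, had 11249, 7131 and 8706 in NTG and 7412, 12848 and 12242 in 3xTg. In both genes 3xTg replicates 2 and 3 were above the NTG libraries and replicate 1 was below or within them. Jun had a log2 fold change of 0.20 (SE 0.24, 95% interval -0.34 to 0.73, limma adjusted p = 0.648). For Junb it was 0.25 (SE 0.22, 95% interval -0.25 to 0.74, limma adjusted p = 0.520). Jund (ENSMUSG00000071076, chr8:70698949-70700616), the family member that is expressed most steadily in resting cells, had 2787, 3300 and 3173 in NTG and 2668, 2960 and 3812 in 3xTg. Here only 3xTg replicate 3 exceeded the NTG range, and Jund had a log2 fold change of 0.02 (SE 0.14, 95% interval -0.30 to 0.33, limma adjusted p = 0.959). Genes on the other strand overlap all 3: Junos over Jun (mean normalized count 59.5), Prdx2 over the end of Junb (12544) and Gm11175 over Jund (0). The library kit does not mark strand, so that Junb may have gained or lost reads to Prdx2.

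Egr1 (ENSMUSG00000038418, chr18:34859823-34864984), a zinc finger transcription factor induced by growth factors and synaptic activity, followed Fos closely. It had normalized counts of 21811, 22006 and 17186 in NTG and 16681, 46062 and 48143 in 3xTg. Again replicate 1 of 3xTg was below every NTG library, and replicates 2 and 3 were at 2.28-fold and 2.38-fold of the NTG geometric mean. For Egr1 the log2 fold change came to 0.72 (SE 0.34, 95% interval -0.04 to 1.48, limma adjusted p = 0.232, exact permutation p = 0.4). Nr4a1 (ENSMUSG00000023034, chr15:101254269-101274795), an orphan nuclear receptor, had 1875, 1363 and 954 in NTG and 1004, 3062 and 2574 in 3xTg. Its NTG libraries spanned from 0.71 to 1.39 of their geometric mean, and 3xTg replicate 1 lay within that span. For Nr4a1 it came to 0.57 (SE 0.38, 95% interval -0.27 to 1.41, limma adjusted p = 0.383).

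Ier2 (ENSMUSG00000053560, chr8:84661331-84662852), an early response gene of a nuclear protein, had normalized counts of 7670, 8030 and 6872 in NTG and 5934, 11095 and 12431 in 3xTg. Replicate 1 of 3xTg was the lowest of the 6 libraries and replicates 2 and 3 the highest. Ier2 had a log2 fold change of 0.32 (SE 0.23, 95% interval -0.20 to 0.84, limma adjusted p = 0.431). Arc (ENSMUSG00000022602, chr15:74669083-74672570), which encodes a cytoskeleton-associated protein of neuronal synapses, had 1373, 1297 and 979 in NTG and 1107, 1377 and 1295 in 3xTg. Its groups covered nearly the same range, and no 3xTg library departed from it as in Fos or Egr1. Arc had a log2 fold change of 0.06 (SE 0.15, 95% interval -0.28 to 0.40, limma adjusted p = 0.840).

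**Figure D2:**
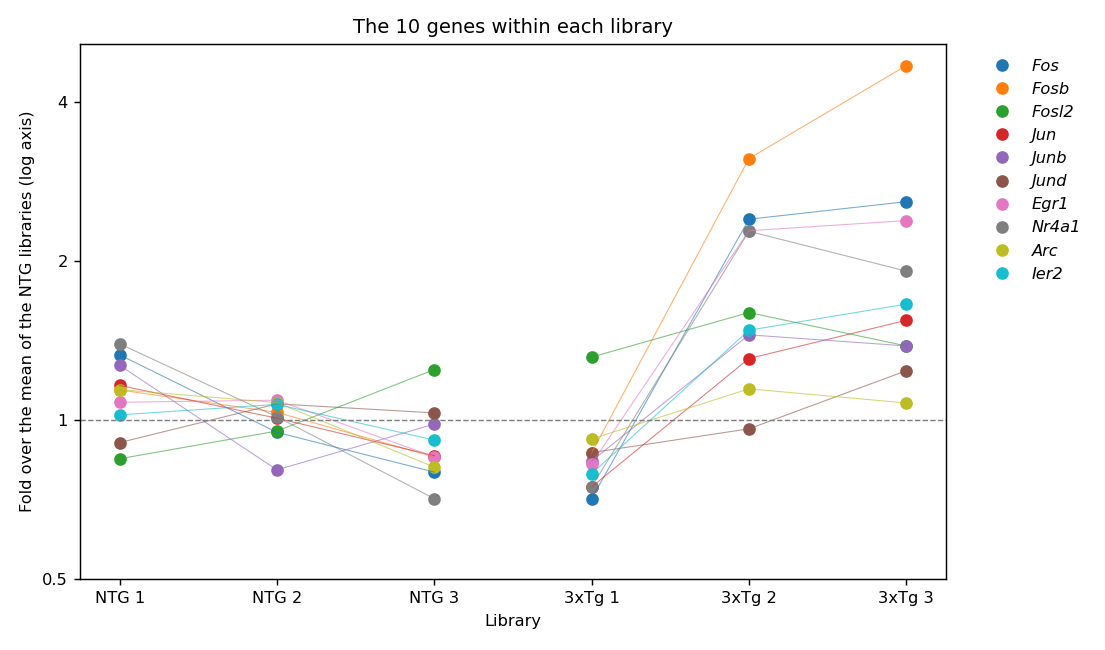
Normalized count of each of the 10 genes in each library as a fold over the geometric mean of the 3 NTG libraries (log axis). Lines join the libraries of a genotype and show no order in time. 3xTg replicate 1 lies between 0.71-fold and 1.31-fold for all 10 genes, whereas replicate 3 reaches 4.68-fold for Fosb and 1.08-fold for Arc.

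Without 3xTg replicate 1, the comparison of 3 NTG with 2 3xTg libraries called 5 of 10 members higher in 3xTg, where 5.14% of all tested genes were called higher. These were Fos, Fosb, Egr1, Nr4a1 and Ier2, and edgeR and DESeq2 called the same 5 on these 5 libraries (5.72% and 6.66% of all tested genes higher). The log2 fold change of Fosb became 1.93 (SE 0.19, limma adjusted p = 0.0022), that of Fos 1.32 (SE 0.20, adjusted p = 0.0081) and that of Egr1 1.22 (SE 0.13, adjusted p = 0.0027). Nr4a1 was at 1.06 (limma adjusted p = 0.0308) and Ier2 at 0.65 (adjusted p = 0.0122). Jun (0.51, limma adjusted p = 0.0598), Junb (0.50, 0.0901), Fosl2 (0.57, 0.156), Jund (0.13, 0.561) and Arc (0.15, 0.552) did not pass. Leaving out any 1 of the other 5 libraries gave 0 of 10 called, where 0.873% to 2.03% of all tested genes were called in either direction. Sample weights (limma's array weights), with all 6 libraries, gave 5 called higher (Fos, Fosb, Fosl2, Egr1 and Ier2), where 6.41% of all tested genes were. Leaving out each library in turn by limma was planned, but this replicate was singled out after its values had been seen to be low. The edgeR and DESeq2 fits without it were also added then. These calls therefore describe the remaining libraries and are no independent test of genotype.

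**Figure D3:**
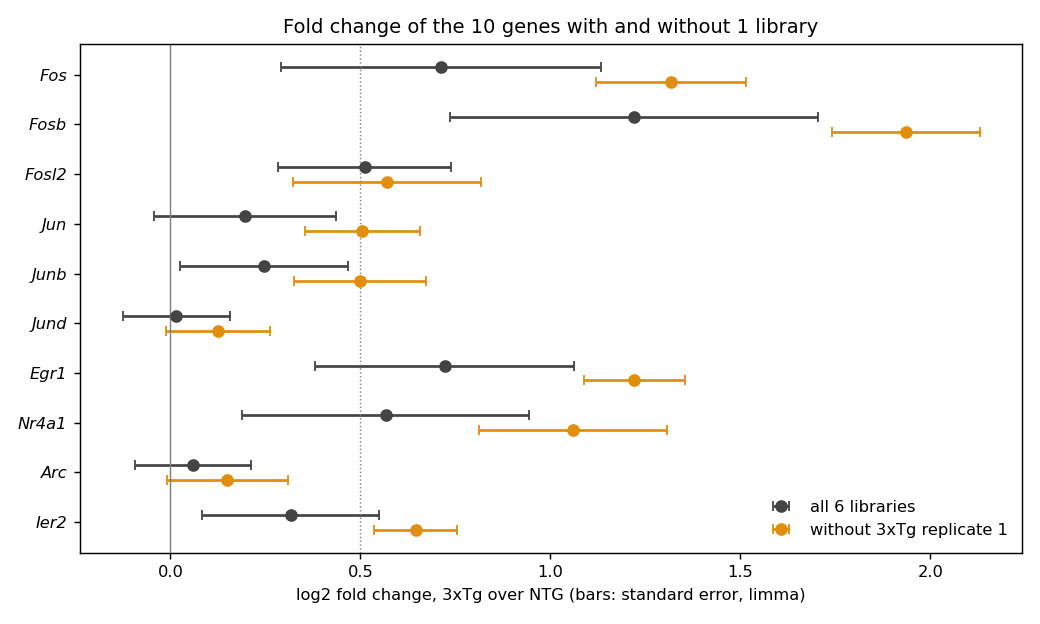
Limma log2 fold changes of the 10 genes (3xTg over NTG; bars are standard errors) with all 6 libraries and without 3xTg replicate 1; the dotted line is the fold threshold of 0.5. Leaving the library out moves Fosb from 1.22 to 1.93 and Fos from 0.71 to 1.32, while Fosl2 goes from 0.51 to 0.57 and Arc from 0.06 to 0.15.

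The balance within AP-1 also varied by library. Per kb, the ratio of Fos to Jun was 1.21, 0.995 and 0.985 in NTG and 1.01, 1.94 and 1.77 in 3xTg replicates 1 to 3. For the 3 Fos family genes over the 3 Jun family genes it was 0.766, 0.658 and 0.587 in NTG and 0.608, 1.24 and 1.19 in 3xTg. Both ratios in 3xTg replicate 1 lay within the NTG range, and those in the other two 3xTg libraries were above it. The per-kb ratio of Fosb to Fos was 0.00947, 0.0120 and 0.0118 in NTG and 0.0135, 0.0144 and 0.0200 in 3xTg, so that in this ratio the groups did not overlap. The gap between the groups, 0.0120 to 0.0135, was smaller than the spread within either group. No test was made on the ratios, and how often ratios of other genes separate the groups was not counted.

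The 5 tested genes nearest to the mean profile of the 10 members, by the root mean square difference of log2 values centred on each gene's mean over the 6 libraries, were Btg2 (0.064), Ska3 (0.085), Sertad4 (0.091), Cxadr (0.098) and Ifit2 (0.0997). The members' own mean profile had a root mean square of 0.43. Btg2, an antiproliferative gene that is itself induced early, had normalized counts of 6491, 6120 and 5626 in NTG and 5227, 11354 and 10793 in 3xTg. Of the 6 libraries it was lowest in 3xTg replicate 1 and highest in replicates 2 and 3. Of these 5 genes, limma called 0 with all libraries and 5 as higher without 3xTg replicate 1, which follows from how they were chosen.

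Other immediate early genes were taken from lists of 21 transcription factors and 38 effectors, of which 20 and 37 passed the filter on low values. Among the 57 genes tested, limma called 3 higher (Klf4, Pim1 and Tiparp, 5.26%, against 1.13% of all tested genes) and 0 lower, and their median log2 fold change was 0.19 against 0.01 for all tested genes. edgeR called 3 and DESeq2 4 higher (1.22% and 3.24% of all tested genes), and 0 lower. Klf4, a zinc finger transcription factor, had normalized counts of 317, 217 and 327 in NTG and 570, 1230 and 1688 in 3xTg. In Klf4 3xTg replicate 1 was thus above every NTG library, although it remained the lowest of its group. Its log2 fold change was 1.90 (SE 0.34, limma adjusted p = 0.0209). Pim1, a serine/threonine kinase gene, had 651, 509 and 708 in NTG and 1034, 924 and 1050 in 3xTg, and in it the 3 3xTg libraries lay close together (log2 fold change 0.70, limma adjusted p = 0.0411). Tiparp, a mono-ADP-ribosyltransferase gene, had 3814, 3939 and 2937 in NTG and 4706, 6934 and 6231 in 3xTg (0.73, limma adjusted p = 0.0446). After removal of the GC trend, Tiparp was at 0.47, below the fold threshold, and was not called. When NTG replicate 1 or 2 or 3xTg replicate 2 or 3 was left out, 0 of the 57 were called higher. In these settings, in that order, only 0.439%, 0.579%, 0.305% and 0.263% of all tested genes were. Without NTG replicate 3 there were 3 (Klf4, Pim1 and Spry2), against 0.857% of all tested genes.

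Without 3xTg replicate 1, 14 of the 57 were called higher (24.6%, against 5.14% of all tested genes) and 1 lower. Egr2 and Egr3, zinc finger factors of the Egr family, had log2 fold changes of 1.72 and 1.78. Egr2 had normalized counts of 466, 464 and 216 in NTG and 241, 1106 and 1271 in 3xTg, and Egr3 53.8, 58.9 and 48.8 in NTG and 32.0, 197 and 178 in 3xTg. Both followed Egr1 in having 3xTg replicate 1 within or below the NTG range. Egr4, of the same family, did not follow it, with 30.4, 37.9 and 17.7 in NTG and 13.2, 20.8 and 20.8 in 3xTg. Its log2 fold change was -0.38 in this setting and -0.59 with all libraries, and it was not called in either. Dusp1, a phosphatase that turns off MAP kinases and the most abundant of the effectors by normalized count, had 16572, 11274 and 11424 in NTG and 9978, 24074 and 24494 in 3xTg, with a log2 fold change of 0.92 (limma adjusted p = 0.0157). Klf6, Atf3, Maff, Dusp4, Btg2, Socs3, Ccn1 and Plk2 were the others called higher besides Klf4 (2.35), Pim1 (0.67) and Tiparp (0.90), and Zfp36l2, an RNA-binding protein gene, was called lower. Ier5 and Csrnp2, with Klf6 the transcription factors of highest normalized count, had log2 fold changes of -0.16 and 0.16 and did not pass, and Rhob, of the effectors, had -0.23 and did not pass.

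No gene of the AP-1 partner, regulator and MAP kinase lists was called by limma with all libraries, where 2.8% of all tested genes were. Of 18 other AP-1 subunits and partners 14 passed the filter on low values, and 0 were called in either direction, with a median log2 fold change of -0.04. At an unadjusted limma p under 0.05 there were 1 higher and 1 lower, against 12.1% and 11.4% of all tested genes. edgeR and DESeq2 called 0, where they called 2.84% and 7.16% of all tested genes in either direction. Mafg, Atf4 and Atf7, the 3 of highest normalized count, had log2 fold changes of -0.07, 0.01 and 0.39 (-0.09, 0.09 and 0.48 without 3xTg replicate 1). Without 3xTg replicate 1, Atf3 (1.24) and Maff (1.21), which are also on the list of transcription factors, were called higher. In that setting 5.14% of all tested genes were. Fosl1, the remaining Fos family member, had at most 2.96 normalized counts in any library and was not tested. Among 17 genes of the SRF, TCF, CREB and MEF2 regulators, which act on immediate early promoters, 0 were called with or without 3xTg replicate 1 (median 0.01 with all libraries). At an unadjusted limma p under 0.05 there were 1 higher and 3 lower (12.1% and 11.4% of all tested genes), and edgeR and DESeq2 called 0. Crebbp, Crtc3 and Crtc1, coactivators of CREB, had log2 fold changes of -0.03, -0.35 and -0.25 (-0.10, -0.48 and -0.30 without 3xTg replicate 1). Of 27 tested genes of the MAP kinase cascade, limma called 0, edgeR 0 and DESeq2 1 (7.16% of all tested genes by DESeq2), and the median was 0.09. Limma had 3 higher and 2 lower at an unadjusted p under 0.05 (12.1% and 11.4% of all tested genes). Araf and Map2k2, kinases of the cascade, had log2 fold changes of 0.02 and -0.33. Without 3xTg replicate 1 limma called Rps6ka6 (1.04) higher, where 5.14% of all tested genes were.

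**Figure D4:**
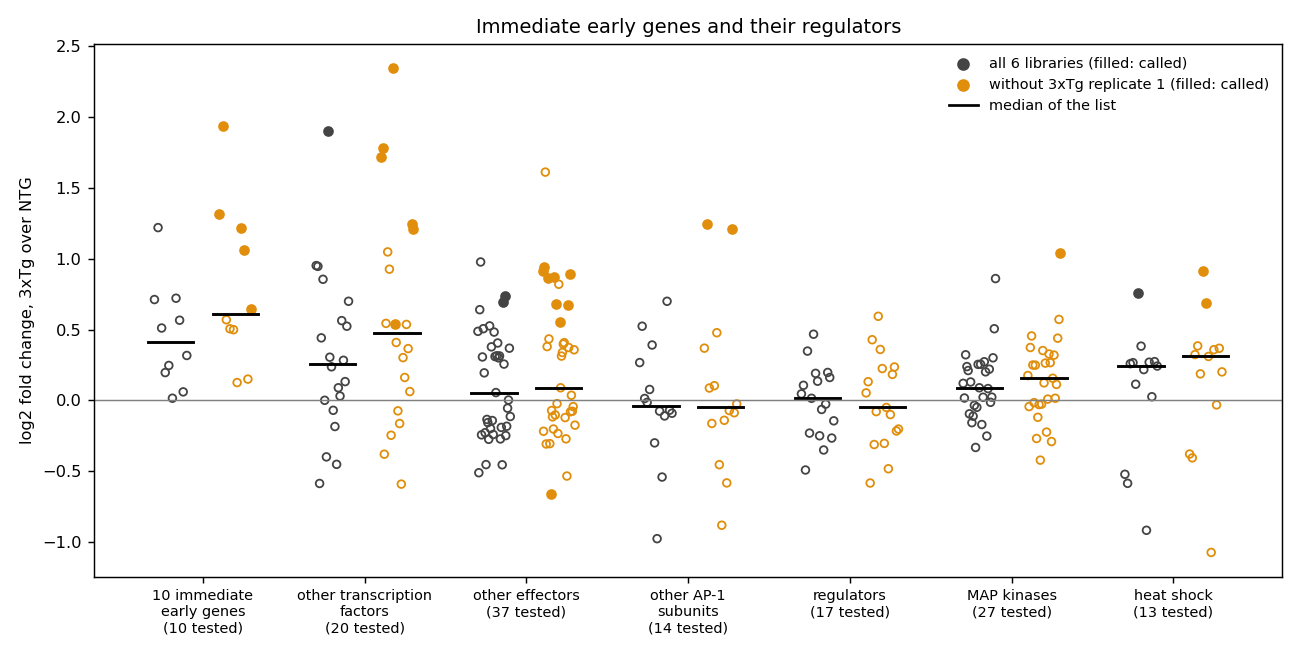
Limma log2 fold changes (3xTg over NTG) of each tested gene of the lists, with all 6 libraries and without 3xTg replicate 1; filled points were called and lines mark list medians. With all libraries 0 of the 10 genes, 1 of 20 other transcription factors and 2 of 37 effectors are called, and without the library 5, 6 and 9.

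Genes that dissociation or stress can induce outside this class were read in the 13 heat shock genes. Limma called 1 of them higher, where 1.13% of all tested genes were: Dnaja1 (log2 fold change 0.76, limma adjusted p = 0.0398). Without any 1 of the NTG libraries, 3xTg replicate 2 or 3xTg replicate 3 Dnaja1 was not called (limma adjusted p from 0.0673 to 0.167), and without 3xTg replicate 1 it was called (0.92) together with Dnajb1 (0.69). Both encode cochaperones of Hsp70. Hspa8, Hsp90ab1 and Hsp90aa1, the 3 of highest normalized count, had log2 fold changes of 0.26, 0.11 and 0.27 (0.32, 0.19 and 0.38 without 3xTg replicate 1) and did not pass. The mean of the heat shock genes, on the log2 scale centred over the 6 libraries, was 0.01, 0.07 and -0.17 in NTG and -0.13, -0.05 and 0.28 in 3xTg. For the 10 immediate early genes it was -0.07, -0.22 and -0.39 in NTG and -0.46, 0.53 and 0.62 in 3xTg. Between 3xTg replicates 2 and 3 the inducible chaperone genes Hspa1a (547 and 1425 normalized counts), Hspa1b (659 and 2123) and Hspb1 (169 and 427) differed most, while Hspa8 (43106 and 45070) and Dnaja1 (9210 and 8028) were close. Hspa1a was at 1443, 1257 and 837 in NTG and 656 in 3xTg replicate 1, and Hspa1b at 1856, 1896, 1094 and 813. Both were lowest of all libraries in 3xTg replicate 2, with log2 fold changes of -0.52 and -0.59 (limma adjusted p = 0.352 and 0.373). Of the 13 heat shock genes, 10 had log2 fold changes above 0.

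Markers of vessel cells and of fibroblasts and meninges were lowest, as mean centred log2 values, in 3xTg replicates 2 and 3, the libraries with the highest Fos, Fosb and Egr1. Microglia and macrophage, mature neuron and astrocyte markers were also lowest in these libraries, at values nearer to the mean. Oligodendrocyte lineage markers were lowest in NTG replicate 3. The 15 endothelial markers summed to normalized counts of 10346 to 12413 in NTG and to 8088, 4639 and 5302 in 3xTg replicates 1 to 3. Limma called 4 lower, against 1.67% of all tested genes (edgeR 2 against 1.62% and DESeq2 12 against 3.93%). Without 3xTg replicate 1 limma called 11 of the 15 lower, against 5.74% of all tested genes. The pericyte and smooth muscle markers, of which 10 of 12 were tested, summed to 36123 to 45766 in NTG and to 34069, 19854 and 20441 in 3xTg, with 2 called lower by limma (9 without 3xTg replicate 1). The fibroblast and meningeal markers, of which 8 of 10 were tested, had mean centred log2 values of 0.49, 0.38 and 0.36 in NTG and 0.17, -0.70 and -0.70 in 3xTg, with 1 called lower by limma (4 without 3xTg replicate 1). Their summed normalized counts ran otherwise, at 9733, 12216 and 5582 in NTG and 6087, 6445 and 7042 in 3xTg. 3xTg replicate 1 was lowest of its group in the immediate early genes. It was highest of its group in the endothelial and the pericyte and smooth muscle sums, and lowest in the fibroblast and meningeal sum. Cldn5, the tight junction gene of brain endothelium, was at 2530, 2094 and 2155 in NTG and 1576, 609 and 816 in 3xTg. In bulk RNA, fewer cells of a type and less RNA per cell cannot be told apart. Microglia and macrophage markers summed to 7917 to 9559 in NTG and 6220 to 8356 in 3xTg. The 14 mature neuron markers summed to 45351, 46896 and 36442 in NTG and 39400, 45297 and 44029 in 3xTg. Their sum was thus lowest in NTG replicate 3 and 3xTg replicate 1, unlike their mean centred log2 values. As mean centred log2 values, microglia markers were at 0.11, 0.32 and -0.03 in NTG and 0.06, -0.36 and -0.10 in 3xTg. Mature neuron markers were at 0.16, 0.29 and -0.03 in NTG and -0.03, -0.15 and -0.24 in 3xTg. The 8 astrocyte markers were at 0.14, -0.03 and 0.08 in NTG and 0.11, -0.09 and -0.20 in 3xTg. Limma called 1 microglia, 1 neuron and 0 astrocyte markers lower (1, 4 and 1 without 3xTg replicate 1). No marker of these lists was at 0 in every library. Xist was at 8587, 9.82 and 4554 in NTG and 9101, 3902 and 4093 in 3xTg, and Ddx3y at 2.34, 2442 and 933 in NTG and 0, 2549 and 1556 in 3xTg. The part of these markers, of sex and of depth in the immediate early gene values was not tested.

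**Figure D5:**
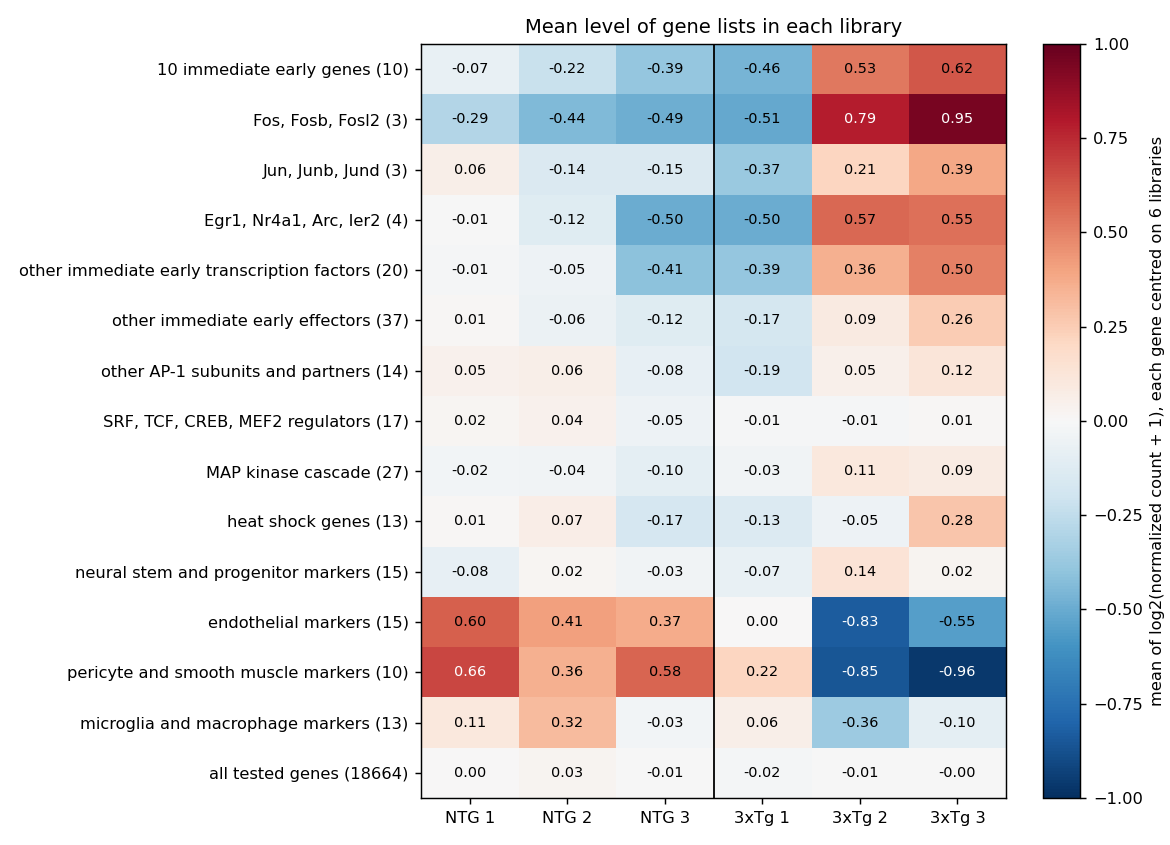
Mean log2(normalized count + 1) of gene lists in each library, each gene centred on its mean over the 6 libraries; the number of tested genes stands in parentheses. The 10 genes are at -0.46, 0.53 and 0.62 in 3xTg replicates 1 to 3, and the endothelial markers at 0.00, -0.83 and -0.55.

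Because the 10 genes are rich in GC, they were also compared after the GC trend of each library had been removed. With all libraries 0 of 10 were again called (0.964% of all tested genes higher), and their median log2 fold change was 0.60 in place of 0.41. Without 3xTg replicate 1, 8 of 10 were called higher (2.35% of all tested genes), all but Fosl2 and Arc, with a median of 0.96. Jund, the most GC-rich member, moved most: its log2 fold change without that library went from 0.13 to 0.65 (limma adjusted p = 0.0071), and for Jund, Jun and Junb the call thus depended on this setting.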

How the data were processed

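Alignment to GRCm38 (mm10) with HISAT2 and counting per gene with featureCounts were done by the authors. The deposited signal values are read counts divided by DESeq2 size factors. Versions and strand settings are not given in the sources used here. The deposited log2 fold changes, p-values and a weight score of the authors' own fit were not used. In all 6 libraries 100% of values gave whole reads within 0.01 after multiplication by 1 factor per library. Of 55471 genes, 55230 were matched to GENCODE M21.

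Genes averaging 10 or more (18664) entered a limma fit with a variance trend (limma 3.58.1, R 4.3.3) of log2(normalized count + 1), two-sided and adjusted by Benjamini-Hochberg. The added count understates changes of low genes. Recovered reads were tested with edgeR 4.0.16 and DESeq2 1.42.0. Intervals are limma's at 95%. Single genes were also compared by an exact two-sided permutation test. The tests were checked on simulated counts with the same spread setting for every gene and no deviating library. That check does not cover libraries that differ as these 3xTg libraries do. Tables were made with Python 3.11.15, scipy 1.17.1 and pandas 2.3.3, and figures with matplotlib 3.10.9.

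The 10 genes and the gene lists were chosen with earlier results of these data known. The text names the 10 genes, the called genes of the lists, the 3 of highest mean count in each list, and the 5 genes nearest in profile, except that 1 MAP kinase gene is not reported here. Genes called only without 3xTg replicate 1, and Spry2, Egr4, Fosl1, Hspa1a, Hspa1b, Hspb1, Dcx, Eomes and Sox2, were added after their values were seen. The labels do not say whether replicates are separate animals or pools, and p-values measure the spread between these libraries. Promoters are RefSeq's, with a start that in Nr4a1, Fosl2 and Fosb lies inside the span of the GENCODE gene and in Junb and Jund lies before it. The Jund window ended at base 70697738, and the GENCODE gene starts at 70698949. Alternatives were the added count, filter, scaling, test, replicate block, GC trend, array weights, fold threshold and leaving out each library.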

Additional observations from a re-analysis of the deposited data

How the results depend on the processing

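None of the 10 genes was called lower in any of the 22 alternatives, and 17 alternatives also called 0 higher. The exceptions were array weights (5 called higher: Fos, Fosb, Fosl2, Egr1 and Ier2) and the fits without 3xTg replicate 1, with 5 by limma, 5 by edgeR, 5 by DESeq2 and 8 with the GC trend removed, of which the last 3 were chosen after seeing the data. Leaving out 1 library gave 0 to 5. All tested genes called higher were 210 with all libraries, 604 by DESeq2, 1196 with array weights, and 1068, 1243 and 438 by edgeR, by DESeq2 and with the GC trend removed, each without 3xTg replicate 1. Those called lower were 312, and 733, 1408, 1143, 1431 and 748 in the same settings, and 193 with a mean of at least 50. Leaving out 1 library gave 49 to 959 higher and 106 to 1071 lower, with the highest counts without 3xTg replicate 1. The causes were not tested. Log2 fold changes near 0 changed sign: Jund was at -0.036 with upper quartile scaling and from -0.13 to 0.13 when 1 library was left out (below 0 without NTG replicate 1 or 3xTg replicate 3). Jun ran from -0.019 (without 3xTg replicate 3) to 0.51. Arc was at -0.0039 with array weights and ran from -0.089 to 0.15 (below 0 without NTG replicate 3 or 3xTg replicate 2). Fos, Fosb, Fosl2, Junb, Egr1, Nr4a1 and Ier2 stayed above 0 in all 22 alternatives.

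The labels give both groups replicate numbers 1 to 3. Deviations from the group means correlated between libraries of the same number at 0.06, 0.20 and 0.04, which does not show that the numbers mark pairs. With a replicate block 0 of 10 genes were called, and 302 genes were called higher and 450 lower, and with the GC trend removed as well again 0 of 10. With 3 libraries a group, of which 1 decides the calls, these data give wide intervals for the 10 genes. The upper bounds reach 2.30 for Fosb on the log2 scale. Fosl2 had the fewest reads of the 10, and the part of depth was not tested.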
